A study of Mus musculus with 6 samples.

Results

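Imprinted genes are genes expressed mainly from the copy inherited from 1 parent. Here 36 of them were followed in mouse lung endothelial cells labelled as control or as HIF-2α knockout. A gene was measured where a probe set of the array named it alone, and the probe set with the highest mean over the 6 arrays stood for it. Of the 36 genes, 34 had such a probe set. The signal of 20 of them stayed at the floor of the array on all 6 arrays, and the remaining 14 carried the results. H19 and Zrsr1 had no probe set naming them alone. Probe sets annotated to several genes, 1 of them for H19, 1 for Igf2r and 6 for Snrpn, were not used.

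Gene expression was measured with 1 array per sample, 3 arrays from control and 3 from knockout cells, all after 16 h in 0.5% oxygen. Per the labels, the cells were taken from mouse lungs and selected repeatedly by endothelial markers. The knockout cells carried VE-Cadherin-Cre, a recombinase driven by an endothelial promoter, and were HIF-2a floxed/floxed. The control cells are described in 3 ways: as HIF-2a floxed/WT with the same Cre, as Hif-2a floxed/floxed, and as wild type. The labels give neither the age of the mice nor whether arrays within 1 group are separate animals or cultures, so p-values measure the spread between these arrays only. Cells in normal oxygen were not analysed here.

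Imprinting marks are laid down as DNA methylation in the egg or the sperm, at control regions that govern whole clusters of neighbouring genes. After fertilisation Dnmt1 and its partner Uhrf1 copy these marks at each cell division. Many imprinted genes act on growth before birth, such as the growth factor Igf2 and its antagonists, and many are switched off in most tissues after birth. The arrays measure RNA from both parental copies together, so a parental allele named here is textbook background and was not measured.

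All values are array intensities on a linear scale. A gene counts as being at the floor in a group when its signal is under 16 on each of the 3 arrays there. Differences are knockout minus control of log2(intensity + 16), which understates changes of dim genes. The limma test was fitted over 12277 genes and adjusted over all of them, with a threshold of 0.05. In that fit 1683 genes (13.7%) passed, with 1060 higher (8.63%) and 623 lower (5.07%) in the knockout arrays. Arrays of the 2 groups did not overlap in 36.2% of the genes tested. Controls 1 and 3 were the closest pair within a group, with an SD of 0.14 for their log2 difference, against 0.31 to 0.68 for the others. The brightest Epas1 probe set, which reads the HIF-2α gene, differed by -0.02 ± 0.04 (SE, limma adjusted p = 0.753). The position of its probes relative to the deleted part was not used, so it does not check the genotype. The median signal per array was between 5.52 and 5.66, and the number of arrays limits the precision.

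Of the imprinted genes, 24 passed the filter on low values, which left out the dimmest 40% of probe sets, and 10 of those 24 were still at the floor on all 6 arrays. In the knockout arrays 6 imprinted genes were lower (Peg3, Asb4, Peg10, Mest, Copg2 and Kcnq1), 1 was higher (Igf2) and 17 did not pass. The median log2 difference of the 24 was -0.09, beside 0.01 over all genes tested. Among the 14 genes over the floor on at least 1 array, 12 had a negative log2 difference, beside 4667 of all 12277 genes tested. The median of the 14 was -0.23, beside 0.05 for the 9921 tested genes over the floor, of which 16.9% passed. Of these 14, 6 were called lower (6.23% of the tested genes over the floor were) and 1 higher (10.7% were). Peg3, Asb4 and Kcnq1 were called and at least 2-fold lower, as were 1.61% of all genes tested. Peg3, Asb4 and Igf2 were at the floor in 1 group and entered the test through the other group, so these counts describe the list and do not support it. The groups did not overlap in 10 of the 14 genes, beside 43.1% of the tested genes over the floor. Genes were also split by the allele expressed in tissues where they are imprinted, with Ube3a counted as maternal. Of 12 paternally expressed genes tested, 3 were lower and 1 higher, and of 11 maternally expressed ones 3 were lower. Of all genes tested, 5.07% were lower and 8.63% higher. At the floor on all 6 arrays were 6 of the 12 and 4 of the 11. By these textbook alleles the genes that passed came from both kinds, but imprinting in these cells was not measured.

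**Figure D1:**
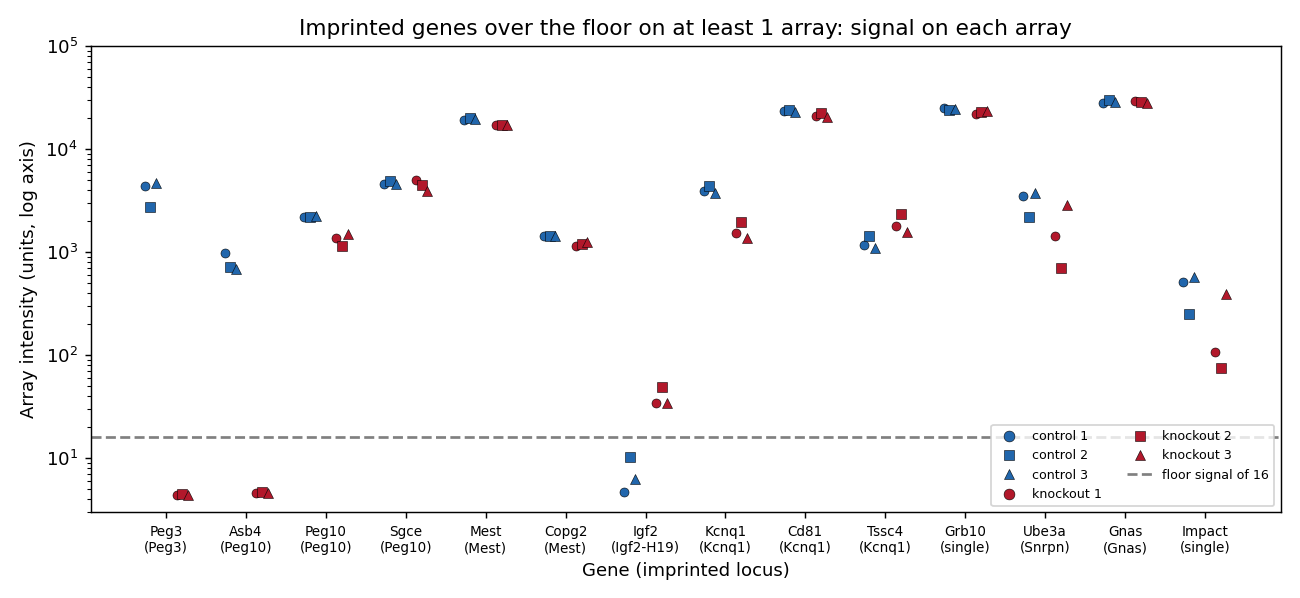
Array intensity on a log axis for the 14 imprinted genes over the floor on at least 1 array, with 1 point per array (blue control, red knockout, symbols by replicate number) and the floor signal of 16 dashed. Peg3 and Asb4 are under the floor on all 3 knockout arrays, and Igf2 is under it on all 3 control arrays.

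**Figure D2:**
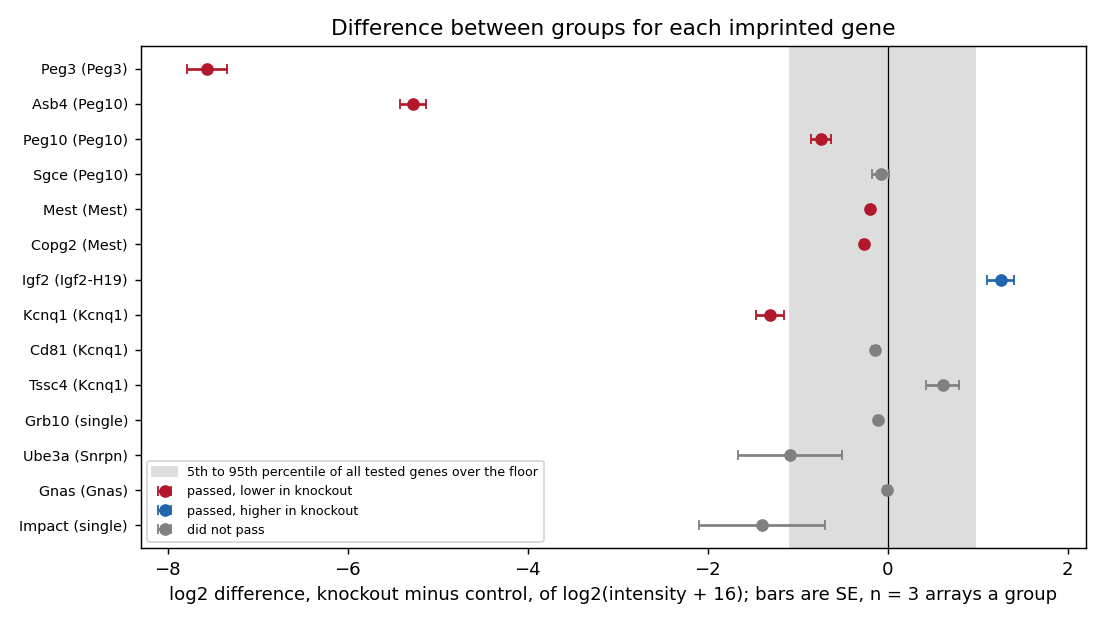
Difference between knockout and control arrays for the same 14 genes on the log2(intensity + 16) scale, with SE bars (n = 3 arrays a group) and grey shading for the 5th to 95th percentile of all tested genes over the floor (-1.08 to 0.98). Peg3 and Asb4 lie far below the shading and Kcnq1, Impact and Ube3a closer to its lower edge, Igf2 lies above it, and Ube3a and Impact have the widest bars.

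At the Peg3 locus, Peg3 fell from a clear signal to the floor. Peg3 encodes a zinc finger protein that binds DNA and is expressed from the paternal copy. Its promoter is shown because Peg3 and its neighbour Usp29, also paternally expressed, start back to back from it. The windows of 250 bases before to 50 bases after each start overlap by 263 bases on opposite strands (RefSeq, GRCm38.p6). The Peg3 window, chr7:6730370-6730669 on the minus strand, holds 1 GCGTG, the letters of a hypoxia response core, set in capitals:
Peg3: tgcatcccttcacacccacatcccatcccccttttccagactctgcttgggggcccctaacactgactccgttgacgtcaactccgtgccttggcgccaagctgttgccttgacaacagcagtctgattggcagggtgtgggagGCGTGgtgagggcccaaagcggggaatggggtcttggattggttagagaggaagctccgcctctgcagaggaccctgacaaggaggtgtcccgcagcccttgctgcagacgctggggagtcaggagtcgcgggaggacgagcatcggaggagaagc

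The Peg3 signal was 4410, 2751 and 4699 on controls 1 to 3 and 4.46, 4.48 and 4.45 on knockouts 1 to 3. Every control array was far over the floor and every knockout array was at it, so the groups did not overlap. Peg3 was at least 241-fold lower in the knockout arrays (log2 difference -7.56 ± 0.22 SE, limma adjusted p = 0.000935). With the knockout arrays at the floor the fitted difference depends on the pseudocount, at -9.46 with 1 and -5.84 with 64, so the bound is the measure of size. Control 2 was the lowest control, and Peg3 passed with each array left out (limma adjusted p from 0.000117 to 0.0131). Of its other probe sets, 2 were at the floor throughout and 2 fell. One read 497, 263 and 458 on the controls and 5.24, 5.39 and 5.18 on the knockouts, and another 198, 125 and 279 against 4.43, 4.51 and 4.42. Both passed over 27023 probe sets, of which 7.65% did (limma adjusted p = 0.00584 and 0.0122).

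Usp29, which belongs to the ubiquitin-specific protease family, stayed at the floor on all 6 arrays. It read 5.20, 7.89 and 6.02 on the controls and 4.68, 4.44 and 4.68 on the knockouts, and did not pass (limma adjusted p = 0.184). Zim1, a maternally expressed zinc finger gene of the cluster, was also at the floor throughout. Peg3 was thus the single gene of the cluster with a measurable signal, and in control cells alone. Among the 6 nearest tested genes outside the cluster 0 passed with limma, and 1 had an unadjusted p under 0.05. The flanking zinc finger gene Zfp28 read 185 ± 16.8 in controls and 199 ± 23.9 in knockouts (mean ± SD over 3 arrays each, limma adjusted p = 0.606). Zfp772, the gene with that unadjusted p, read 57.1 ± 9.64 in controls and 37.6 ± 3.65 in knockouts without overlap (limma adjusted p = 0.077). The median log2 difference of the 6 was 0.04.

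At the Peg10 locus the differences ran in both directions along the chromosome. Asb4, at its far end, encodes an ankyrin repeat and SOCS box protein of a ubiquitin ligase, and is known as a substrate of the oxygen-dependent asparagine hydroxylase FIH. It is expressed from the maternal copy. RefSeq lists 2 Asb4 starts, and both windows are shown because this gene fell to the floor. They lie on the plus strand at chr6:5383136-5383435 and chr6:5390160-5390459, and the second holds 1 ACGTG, read on the opposite strand as CACGT and set in capitals:
Asb4 first start: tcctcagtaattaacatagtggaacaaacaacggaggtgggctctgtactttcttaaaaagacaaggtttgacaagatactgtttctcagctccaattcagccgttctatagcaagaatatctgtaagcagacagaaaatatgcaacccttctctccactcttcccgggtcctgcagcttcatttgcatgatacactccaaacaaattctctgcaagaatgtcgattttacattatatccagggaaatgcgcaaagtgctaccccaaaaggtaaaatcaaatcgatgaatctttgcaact
Asb4 second start: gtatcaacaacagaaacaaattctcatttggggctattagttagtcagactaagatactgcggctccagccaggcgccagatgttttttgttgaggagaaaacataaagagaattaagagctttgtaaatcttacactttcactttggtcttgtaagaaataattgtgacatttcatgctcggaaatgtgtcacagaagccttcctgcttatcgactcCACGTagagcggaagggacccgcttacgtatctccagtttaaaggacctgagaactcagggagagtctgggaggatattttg

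The Asb4 signal was 979, 722 and 681 on controls 1 to 3 and 4.67, 4.72 and 4.66 on knockouts 1 to 3. The groups were fully apart. Asb4 was at least 49.0-fold lower in the knockout arrays (log2 difference -5.27 ± 0.15, limma adjusted p = 0.000836). Its fitted difference also depends on the pseudocount, at -7.11 with 1 and -3.63 with 64. Its other probe set fell from 228 ± 20.3 to 6.17 ± 0.09 (mean ± SD, n = 3 each, limma adjusted p = 0.000417 over probe sets). Asb4 passed with each array left out (limma adjusted p from 0.000493 to 0.0131). Among all genes tested, 23 (0.187%) were called lower with a signal in controls and the floor on all 3 knockout arrays, and Peg3 and Asb4 were among them.

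Peg10, a protein derived from a retrotransposon and required for the placenta, was lower but well expressed. It read 2216, 2215 and 2267 on the controls and 1383, 1139 and 1496 on the knockouts. All knockout arrays lay under all controls, a 1.68-fold difference (log2 difference -0.74 ± 0.11, limma adjusted p = 0.022). The call was lost without control 1, 2 or 3 or without knockout 1 (limma adjusted p from 0.0636 to 0.102). Sgce, epsilon-sarcoglycan, is paternally expressed like Peg10 and starts beside it in the opposite direction. It read 4546, 4935 and 4565 on the controls and 4969, 4455 and 3948 on the knockouts, so the groups overlapped (log2 difference -0.08 ± 0.10, limma adjusted p = 0.654). Whether the changes of Peg10 and Sgce differ from each other was not tested. Ppp1r9a, the actin-binding protein neurabin, was at the floor on all 6 arrays.

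The paraoxonases Pon3 and Pon2 lie between Ppp1r9a and Asb4 and are imprinted in some tissues. Pon3 read 317, 301 and 303 on the controls and 529, 462 and 527 on the knockouts, and rose by 0.69 ± 0.06 (limma adjusted p = 0.00891). Pon2 read 3553, 3684 and 3778 on the controls and 2595, 2783 and 2806 on the knockouts, and fell by 0.43 ± 0.04 (limma adjusted p = 0.0111). Each of these calls was lost without control 1 or control 3 (limma adjusted p from 0.0519 to 0.0609). Past Asb4, the nearest tested genes were Pdk4, a kinase that inhibits pyruvate dehydrogenase, and Dync1i1, a dynein intermediate chain. Dync1i1 rose from 378 ± 5.39 to 674 ± 101 (mean ± SD, n = 3 each, log2 difference 0.80 ± 0.11, limma adjusted p = 0.0195). Pdk4 rose from the floor to 31.3 ± 3.91 (limma adjusted p = 0.0238). The Dync1i1 call was lost without any 1 control or without knockout 1 (limma adjusted p from 0.0601 to 0.0938). The Pdk4 call was lost without control 1, control 3, knockout 1 or knockout 2 (limma adjusted p from 0.061 to 0.101). On the side of Sgce, Bet1, Gng11 and Gngt1 did not pass.

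**Figure D3:**
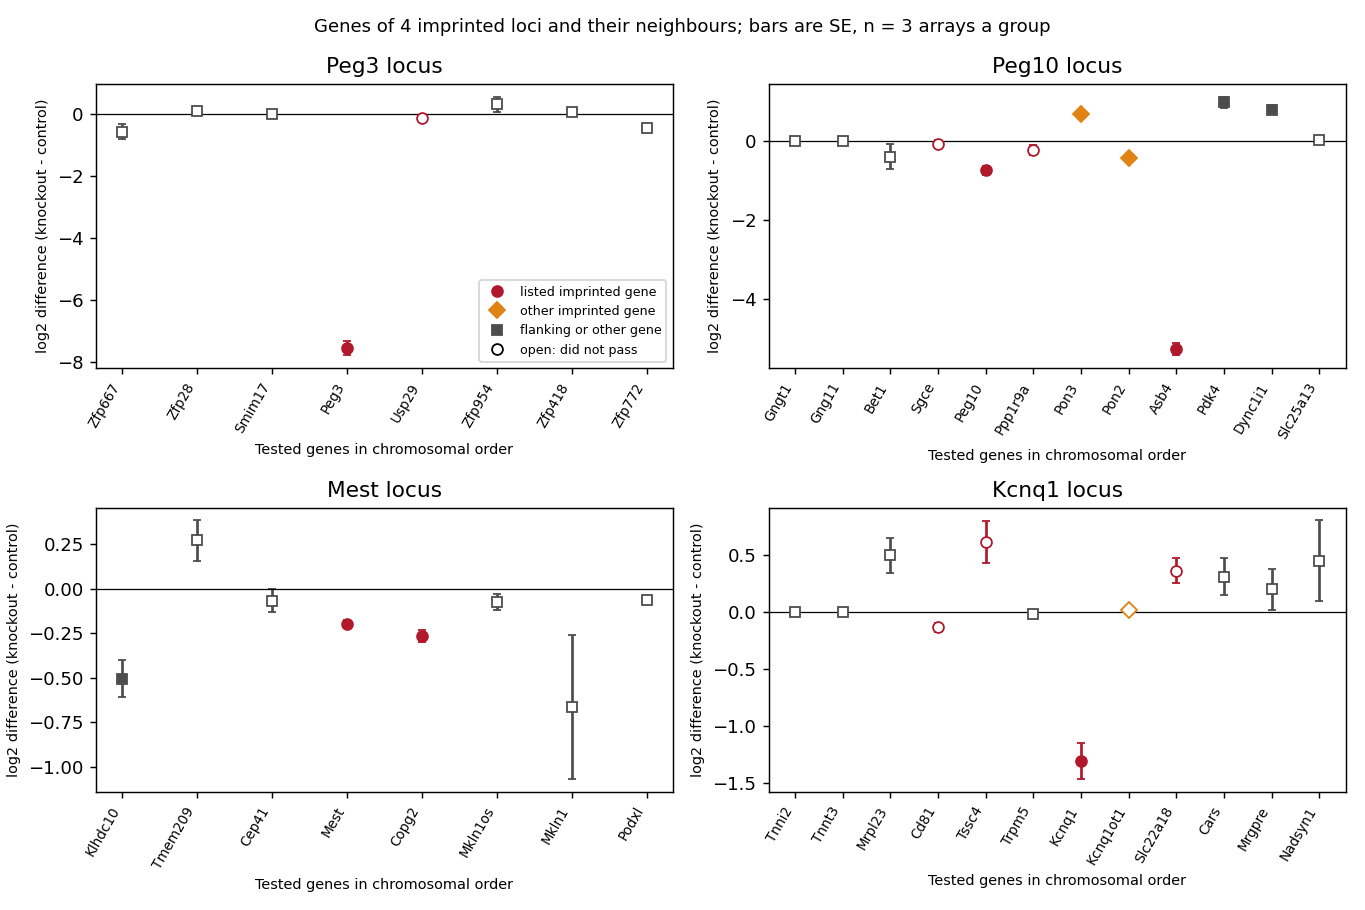
log2 difference (knockout minus control, SE bars, n = 3 arrays a group) for the tested genes of 4 imprinted loci and their flanks, in chromosomal order and not to distance. Flanks are the 3 nearest tested genes on each side that are not on a list of imprinted genes, so listed ones there are skipped. Vertical axes differ between panels. The fall of Peg3 stands among neighbours that did not pass, while at the Peg10 locus lower genes (Peg10, Pon2, Asb4) and higher ones (Pon3, Pdk4, Dync1i1) lie side by side.

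Both genes of the Mest locus were slightly lower. Mest, a paternally expressed gene for a hydrolase-like protein of the endoplasmic reticulum, and Copg2, a subunit of the COPI vesicle coat, overlap tail to tail on opposite strands. Starts of both are shown because they fell together. The Mest window, chr6:30737800-30738099 on the plus strand, is 1 of 3 that RefSeq gives. It holds neither GCGTG nor ACGTG, whereas the Copg2 window, chr6:30896745-30897044 on the minus strand, holds GCGTG on either strand 3 times, set in capitals:
Mest: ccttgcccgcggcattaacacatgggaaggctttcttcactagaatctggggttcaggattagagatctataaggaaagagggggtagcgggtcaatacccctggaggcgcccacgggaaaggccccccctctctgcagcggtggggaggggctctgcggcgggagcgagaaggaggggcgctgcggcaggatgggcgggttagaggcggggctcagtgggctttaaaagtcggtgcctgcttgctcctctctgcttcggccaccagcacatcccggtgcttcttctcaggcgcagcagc
Copg2: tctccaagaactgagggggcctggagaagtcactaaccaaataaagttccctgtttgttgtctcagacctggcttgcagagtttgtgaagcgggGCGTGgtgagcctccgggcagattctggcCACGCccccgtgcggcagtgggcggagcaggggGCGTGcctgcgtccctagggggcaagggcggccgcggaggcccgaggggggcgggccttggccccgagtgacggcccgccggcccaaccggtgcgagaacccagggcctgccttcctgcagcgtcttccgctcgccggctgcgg

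Mest read 19202, 19909 and 19715 on the controls and 16966, 17249 and 17190 on the knockouts. The arrays of each group lay close together and the groups did not overlap. The difference was small, 1.14-fold (log2 difference -0.19 ± 0.02, limma adjusted p = 0.0127). Copg2 read 1433, 1451 and 1449 on the controls and 1153, 1195 and 1248 on the knockouts. It was 1.21-fold lower (log2 difference -0.27 ± 0.03, limma adjusted p = 0.0166), again without overlap. The Mest call was lost without control 1, control 3 or knockout 1 (limma adjusted p from 0.0519 to 0.0707), and that of Copg2 without any 1 control or knockout 1 (limma adjusted p from 0.053 to 0.0854). Both calls were also lost when probe sets were kept by a mean signal over 16 in at least 1 group (limma adjusted p = 0.12 and 0.0668), and that of Copg2 with a trended, robust variance (limma adjusted p = 0.146). Of the 6 flanking genes tested, Klhdc10 fell by 0.50 ± 0.11 (limma adjusted p = 0.0459, a call kept only without knockout 3 when arrays were left out 1 at a time) and the other 5 did not pass.

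Igf2 was the imprinted gene that rose, to a low level. It encodes insulin-like growth factor 2, a fetal growth factor expressed from the paternal copy. Its signal was 4.72, 10.4 and 6.38 on the controls, all at the floor, and 34.6, 49.3 and 34.6 on the knockouts. The knockout arrays lay over the floor of 16 and over every control, at least 2.43-fold higher (log2 difference 1.26 ± 0.15, limma adjusted p = 0.015). The call was lost without control 1, control 3 or knockout 1 (limma adjusted p from 0.0621 to 0.0782). A dimmer Igf2 probe set stayed at the floor on all 6 arrays, so the rise rests on 1 probe set. Its receptor Igf2r, which clears the growth factor, was at the floor on all arrays in the probe sets that name it alone.

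At the Kcnq1 locus the groups did not overlap in any of the 4 genes tested, but Kcnq1 alone passed. The share of all tested genes without overlap was 36.2%, and Slc22a18, 1 of the 4, was at the floor on all 6 arrays. Kcnq1 encodes a voltage-gated potassium channel subunit and is maternally expressed in early development. It read 3882, 4429 and 3743 on the controls and 1547, 1964 and 1376 on the knockouts. It was 2.49-fold lower in the knockout arrays (log2 difference -1.31 ± 0.15, limma adjusted p = 0.015). The call was lost without control 1, control 3 or knockout 1 (limma adjusted p from 0.0692 to 0.0765).

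The neighbours of Kcnq1 went both ways and did not pass. Cd81, a tetraspanin of the cell surface, read 23254, 23738 and 22832 on the controls and 21071, 22168 and 20331 on the knockouts (log2 difference -0.14 ± 0.04, limma adjusted p = 0.0891). Tssc4, a factor of spliceosome assembly, read 1168, 1423 and 1097 on the controls and 1792, 2337 and 1578 on the knockouts (log2 difference 0.61 ± 0.18, limma adjusted p = 0.0983). In both genes the arrays of the groups were apart. Cd81 passed with quantile normalization (limma adjusted p = 0.0374). The organic cation transporter-like gene Slc22a18 was at the floor on all 6 arrays, at 4.15 to 4.64 on the controls and 6.82 to 14.0 on the knockouts (limma adjusted p = 0.0943). Cdkn1c, the cyclin-dependent kinase inhibitor p57, and Phlda2, a brake on placental growth, were at the floor in both groups. The long noncoding RNA Kcnq1ot1, whose transcription from the paternal copy silences this cluster, was at the floor too. Of the 6 genes that flank the locus, 0 passed with limma and 1 had an unadjusted p under 0.05.

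Most genes of the Dlk1 and Snrpn loci were at the floor in the probe sets used. Dlk1, an EGF-repeat membrane protein, and the maternally expressed noncoding RNAs Meg3 and Rian were at the floor on every array in all their probe sets. In the Snrpn cluster, whose loss in humans causes Prader-Willi syndrome, Ndn, Magel2, Mkrn3, Peg12 and the probe set naming Snrpn alone were at the floor in both groups. The other genes at the floor on all 6 arrays were Plagl1, Nnat, Nap1l5, Rasgrf1 and Dcn. Over these 20 genes the representative signal ran from 4.03 to 14.0, and the 65 probe sets of imprinted genes under 16 on every array ran from 3.81 to 14.0. A signal at the floor means that the RNA was not detectable with these probe sets. The shared probe sets of Snrpn and Igf2r were not read.

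Ube3a was the only listed gene of the Snrpn cluster over the floor in the probe sets used, and its arrays scattered widely. It encodes an E3 ubiquitin ligase that is imprinted in neurons and expressed from both copies elsewhere. It read 3483, 2178 and 3764 on the controls and 1433, 706 and 2883 on the knockouts. Knockout 3 lay over control 2, so the groups overlapped, and the log2 difference of -1.09 ± 0.58 did not pass (limma adjusted p = 0.275). Its other probe sets over the floor read 368, 173 and 328 against 143, 79.3 and 294, and 277, 192 and 304 against 183, 69.8 and 216. In each of them control 2 was the lowest control, knockout 2 the lowest knockout and knockout 3 higher than control 2. Atp10a, a phospholipid flippase gene beside Ube3a that is imprinted in some strains and tissues, differed more clearly. It read 114, 110 and 106 on the controls and 421, 465 and 350 on the knockouts, and rose by 1.75 ± 0.11 (limma adjusted p = 0.00392). Atp10a passed with each array left out (limma adjusted p from 0.00417 to 0.0332).

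Impact, a paternally expressed regulator of the Gcn2 stress kinase, showed the same scatter as Ube3a. It read 514, 251 and 581 on the controls and 107, 75.5 and 395 on the knockouts, with knockout 3 over control 2. Its log2 difference of -1.40 ± 0.70 did not pass (limma adjusted p = 0.247). Without knockout 3 the difference was -2.05 and passed (limma adjusted p = 0.0488). A second Impact probe set read 132, 91.9 and 153 against 134, 131 and 166 and pointed the other way (log2 difference 0.20 ± 0.20, limma adjusted p = 0.59 over probe sets), so the probe sets disagree. In both Ube3a and Impact, control 2 was the lowest control and knockout 3 the highest knockout. For Impact the SD within groups on the log2 scale was 0.63 in controls and 1.15 in knockouts, against 0.03 and 0.01 for Mest.

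**Figure D4:**
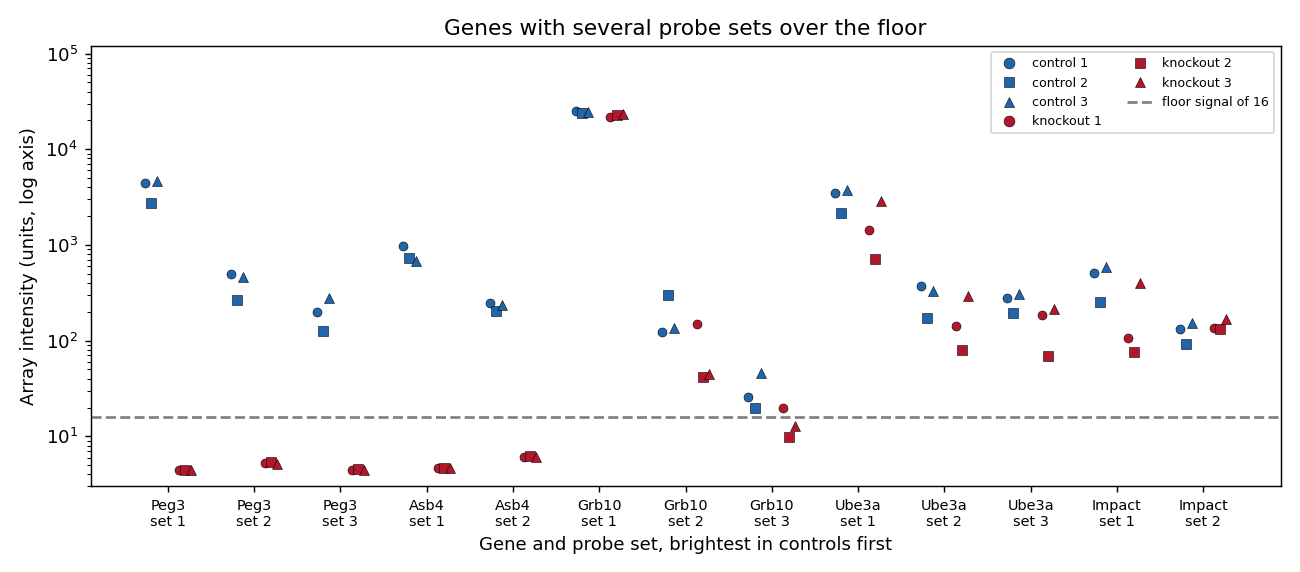
Array intensity on a log axis for the 5 imprinted genes with several probe sets over the floor, with 1 point per array (blue control, red knockout, symbols by replicate number) and probe sets ordered by their signal in controls. All probe sets of Peg3 and Asb4 shown are at the floor in the knockout arrays, those of Ube3a all have control 2 as the lowest control and knockout 2 as the lowest knockout, and those of Impact disagree.

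Grb10 and Gnas were bright in both groups. Grb10, an adaptor that dampens insulin and IGF receptor signalling, read 24907, 23676 and 24565 on the controls and 21848, 22710 and 23376 on the knockouts. The groups did not overlap, but the difference was small and did not pass (log2 difference -0.11 ± 0.04, limma adjusted p = 0.121). Dimmer Grb10 probe sets differed by -1.18 ± 0.58 and -0.60 ± 0.25 and did not pass either (limma adjusted p = 0.278 and 0.23 over probe sets). Gnas, the stimulatory G protein α subunit, read 27680, 29777 and 28876 on the controls and 29384, 28864 and 28028 on the knockouts. These values overlapped fully (log2 difference -0.00057 ± 0.04, limma adjusted p = 0.991). The bright Gnas probe set does not tell apart the several transcripts of that locus. Of the 6 genes flanking Gnas, Stx16 fell by 0.35 ± 0.06 (limma adjusted p = 0.0283) and 5 did not pass. Stx16 kept its call without knockout 1 or knockout 3 and lost it without any other single array.

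**Figure D5:**
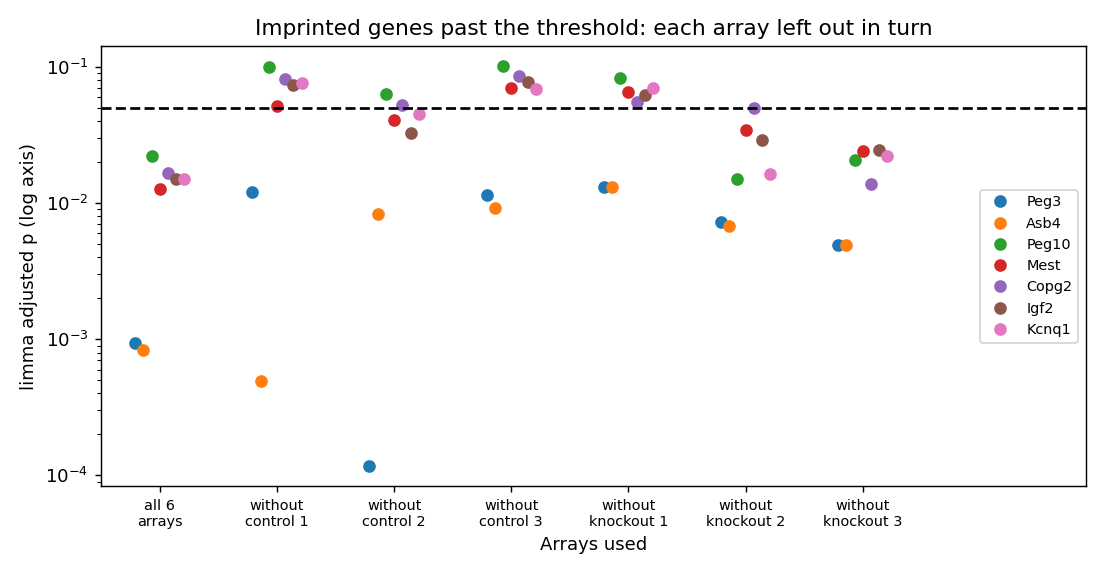
limma adjusted p on a log axis for the 7 imprinted genes past the threshold, over all 6 arrays and with each array left out in turn, with the threshold of 0.05 dashed. Peg3 and Asb4 stay under the line throughout, whereas Peg10, Mest, Copg2, Igf2 and Kcnq1 rise over it without control 1, control 3 or knockout 1.

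Over probe sets in place of genes, the 34 genes had 87 probe sets, of which 22 were over the floor on at least 1 array. Of the 22, 9 were called lower and 1 higher, in 7 genes. Of all probe sets tested, 3.19% were called lower and 4.46% higher. These shares include probe sets at the floor and are not a matched background for the 22. A share among tested probe sets over the floor was not computed. Of the 8 further probe sets over the floor, 3 passed, all lower and all of Peg3 or Asb4.

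Of 26 tested genes that set or read imprinting marks, 2 rose, beside 8.63% of all genes tested, and 24 did not pass, so their share is near the background. Dnmt1, the methyltransferase that copies DNA methylation, read 13288, 14585 and 13038 on the controls and 19516, 20720 and 20379 on the knockouts. All knockout arrays were higher (log2 difference 0.57 ± 0.05, limma adjusted p = 0.00968). Uhrf1, which brings Dnmt1 to newly copied DNA, read 11804, 12235 and 10947 on the controls and 16217, 18230 and 15695 on the knockouts (log2 difference 0.52 ± 0.08, limma adjusted p = 0.0223). The Dnmt1 call was lost without control 1 or control 3, and that of Uhrf1 without any 1 control or knockout 1 (limma adjusted p from 0.0509 to 0.0986). The median over the 26 was -0.0011. Dnmt3l, Dppa3 and Tet1, which act in germ cells or the early embryo, were at the floor. Of 47 other imprinted genes, 39 had a probe set and 27 were tested. Of these 27, Pon3 and Atp10a rose, Pon2 fell and 24 did not pass, with a median of 0.01. Their share is near the background too, where 13.7% of all genes tested passed. Among the 44 tested genes that flank the 8 clusters, 4 passed (9.09%), beside 13.7% of all genes. The 44 include Trpm5, which flanks Igf2-H19 but lies within the Kcnq1 cluster. Of 54 tested genes that flank the 9 single-gene loci, 3 rose and 5 fell (14.8%).

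The promoter windows of imprinted genes were described by letters alone. RefSeq promoters matched 29 of the 36 genes, with 44 windows in all. On either strand, ACGTG stood in 9 windows (20.5%, beside 19.6% of all 32851 promoters) and GCGTG in 22 (50%, beside 32.4%). Both motifs end in CGTG, and ACGTG within CACGTG is read on both strands. GCCATNTT, letters of the YY1 motif, stood in 2 windows (4.55%, beside 6.05%). The median window held 14.5 CG pairs, beside 7 in all promoters.

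Markers of the labelled cell type were present. All 12 endothelial markers were over the floor on at least 1 array, with a summed signal of 164215 to 177301 in controls and 136964 to 152497 in knockouts. Vwf (32.9 to 69.1) and Cldn5 (15.2 to 74.7, under 16 on knockout 3) were dim. Pecam1, Tek and Tie1, 3 of the 12, fell, beside 6.23% of the tested genes over the floor called lower. All 12 had a negative log2 difference, beside 4667 of all 12277 genes tested. The calls of Pecam1 and Tie1 were lost with any 1 array left out (limma adjusted p from 0.0536 to 0.127 and from 0.053 to 0.142), and that of Tek without control 1, control 3 or knockout 1 (limma adjusted p from 0.0655 to 0.0825). The brightest, Egfl7 and Emcn, did not pass (limma adjusted p = 0.464 and 0.633). All 10 fibroblast markers, Pdgfra and Col3a1 the brightest, were at the floor on every array, with sums of 48.2 to 48.9 and 47.7 to 48.1. Of 9 mural cell markers 8, Myh11 among them, were at the floor and Tagln did not pass, with sums of 70.9 to 113 and 109 to 246. Of 9 leukocyte markers 7 were at the floor, among them Ptprc, which defines leukocytes, while Cd68 and Cd14 fell. The Cd68 call was lost without control 1 or control 3, and that of Cd14 also without knockout 1. The leukocyte sums were 3851 to 4515 in controls and 812 to 1200 in knockouts. Cd68 alone read 3688 to 4252 in controls and 756 to 1126 in knockouts, so these sums mostly reflect 1 gene. Of 8 epithelial markers 7, Sftpc among them, were at the floor and Ager fell, with sums of 77.9 to 105 and 53.7 to 56.4. The Ager call was kept without control 2 and lost without any other single array (limma adjusted p from 0.0514 to 0.116). It was also lost with quantile normalization (limma adjusted p = 0.1), with no filter on low values (0.0611) and with the mean of its probe sets (0.0511). The falls of Cd68, Cd14 and the endothelial markers went the same way as those of Peg3, Asb4 and Kcnq1, and their part in these results was not tested. In bulk samples, fewer cells of a type and less RNA per cell cannot be told apart.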

How the data were processed

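Biotin-labelled RNA was hybridised to Affymetrix arrays, 1 per sample. The authors deposited a linear intensity for each probe set on each array. Per the submitters' processing notes MAS5 and GCRMA were used, with neither versions nor roles given. No further normalization was applied. Array medians were nearly equal, but only 41.4% to 42.6% of probe sets per array were over 16. Each median is therefore a dim value and does not check the scale of the expressed genes. Dim probe sets hold nearly the same value on every array, so spreads there are small and folds against the floor are lower bounds.

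Of 45101 probe sets, 64 were array controls. By the platform annotation 34958 named 1 gene, 932 several and 9211 none. The dimmest 40% by mean over 6 arrays were left out, leaving 27023, and the brightest probe set stood for a gene. Values were taken as log2(intensity + 16) and compared in R 4.3.3 with limma 3.58.1, using lmFit and eBayes (tests were two-sided, with Benjamini-Hochberg adjustment over 12277 genes). Fold bounds use the mean log2 intensity of the expressed group over 16. The script was tested on simulated data. Gene order came from RefSeq, GRCm38.p6, which placed nearly all tested genes. Flanking genes were the 3 nearest tested on each side that are not on a list of imprinted genes.

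Members, lists, tests and alternatives were chosen with earlier results of these data known. All 36 members were named, with values on each array for those over the floor. Of other lists up to 4 genes past the threshold were named. The flanking genes Zfp28, Zfp772, Bet1, Gng11 and Gngt1 were named after their values were seen. The alternatives were other pseudocounts, filters, scalings and variance settings, array weights, other probe set rules, a replicate block, the spike-in level (mean log2 of bioB and bioC) as a covariate, controls 1 and 3 averaged, and arrays left out. Figures were drawn with matplotlib 3.10.9.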

Additional observations from a re-analysis of the deposited data

How the results depend on the processing

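Peg3 and Asb4 kept direction and call in all 20 alternatives, and so did Atp10a. With controls 1 and 3 averaged, 2 imprinted genes passed (2 lower, 0 higher) and 194 genes overall (95 higher, 99 lower). With a covariate for the spike-in level 3 passed (3 lower, 0 higher) and 445 overall (164 higher, 281 lower); in both settings Igf2, the 1 higher gene by unadjusted p under 0.05 (limma), missed the adjusted threshold. Array weights, whose estimation stopped before convergence, gave 17 imprinted genes (11 lower, 6 higher) and 8541 overall (5009 higher, 3532 lower). Without control 2 and knockout 3, 10 passed (7 lower, 3 higher) and 4644 overall (2945 higher, 1699 lower). With no filter on low values 883 genes passed overall (513 higher, 370 lower), and the imprinted counts were 6 lower and 1 higher. With 1 array left out, 2 to 9 imprinted genes passed (2 to 7 lower, 0 to 2 higher), and 207 to 3008 overall (94 to 1989 higher, 101 to 1019 lower); the lowest total was without control 1 and the highest without knockout 3. The causes were not tested. With controls 1 and 3 averaged Peg10, Mest, Copg2, Igf2 and Kcnq1 lost their calls, and with the spike-in covariate the same genes except Kcnq1 did.

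The replicate block gave 2 higher and 6 lower imprinted genes, with Tssc4 passing (limma adjusted p = 0.0196), and 2995 genes overall (2076 higher, 919 lower). Deviations of same-numbered arrays correlated at -0.47, 0.84 and 0.80. Deviations from a group mean cancel out, which ties such correlations to each other, so they do not decide whether the numbers mark pairs. The main test did not treat the numbers as pairs. Control 1 with knockout 3 correlated at 0.76 and control 2 with knockout 1 at 0.50. The remaining pairings ran from -0.89 to -0.43. The spike-in level was 10.64 to 10.87 on the controls and 10.85 to 11.07 on the knockouts.

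Signs turned only for genes that had not passed. The log2 difference of Gnas was 0.013 with 75th percentile scaling, 0.068 with array weights, 0.043 without control 2 and knockout 3, and -0.028 to 0.024 with 1 array left out. That of Sgce was 0.12 with array weights, 0.046 without control 2 and knockout 3, and -0.16 to 0.0081 with 1 array left out. With the spike-in covariate Ube3a was 0.14, Impact 0.17 and Epas1 0.028. Epas1 was 0.13 as the mean of its probe sets and -0.061 to 0.012 with 1 array left out. Of these turned values, those of Gnas and Sgce with array weights passed (limma adjusted p = 0.0189 and 0.0292) and the others did not.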
